A study of Mus musculus with 3 samples.

Results

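Chemokines are small secreted proteins that guide migrating cells, and chemokine receptors are the G protein-coupled receptors that read them. The genes described here are all those on the array whose platform symbol carries a chemokine or chemokine receptor name (Ccl, Cxcl, Cx3cl, Xcl, Ccr, Cxcr, Cx3cr or Xcr followed by a number), which gave 50 of 17742 measured genes from 56 probes. Of these, 31 encode ligands and 19 encode receptors. For the 6 genes with more than 1 probe, the brighter probe over the 3 arrays stood for the gene.

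The arrays measured messenger RNA in cultured mouse myeloid leukaemia cells of strain BXH-2, labelled as bone marrow in origin. The sensitive group was the parental line B117P, on 2 arrays (replicates 1 and 2). The resistant group was 1 array of B117HS. That line was selected out of B117P with stepwise increases of cytarabine (Ara-C), a deoxycytidine analogue, during about 10 weeks, and per the labels its IC50 for the drug was about 10 times higher than in B117P. There is 1 resistant line, and whether it is a single clone, or was kept in the drug until harvest, the sources used here do not give. Separate cultures are not stated for the sensitive arrays. The p-values therefore rest on a spread that may be technical only, with the single resistant array taken to share it. Precision is limited by the number of arrays.

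Chemokines are grouped by the spacing of their first cysteines into CC, CXC, CX3C and XC types, and most receptors bind several ligands of 1 type. In the myeloid lineage, CCR2 and CX3CR1 mark monocytes and guide their exit from the marrow and patrolling of vessels, CXCR1 and CXCR2 draw neutrophils to ELR-type CXC ligands, and CXCR4 holds progenitors in the marrow through CXCL12. Inflammatory CC chemokines such as CCL2, CCL3, CCL4 and CCL5 are made by activated macrophages themselves and are switched on through NF-kB and interferon pathways. These statements are background and not results of the arrays.

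Values are linear intensities as deposited, in arbitrary units, and reach slightly below 0 because a background had been subtracted. Over all probes, the sensitive arrays had medians of 58.4 and 72.5 and the resistant array one of 24.9. Differences are resistant minus sensitive on the scale log2(intensity + 50), which understates the change of dim genes. To be called, a gene needed a limma p under 0.05 after Benjamini-Hochberg adjustment over all 17742 genes, and had to lie at least 1 log2 unit above both sensitive arrays or at least 1 below both. Because the resistant array was dimmer in its median, every comparison was repeated after each array was scaled on its 6167 bright probes (mean of at least 500 units). This adds at most 0.76 to a difference from the sensitive mean, and can add slightly more against replicate 2 alone. Here "rose" and "fell" are used only of genes called on both scales, and differences are those as deposited unless the scaling is named. Of 10 general leukocyte and myeloid markers, none was at or below 10 units on any array. Ptprc read 8096, 8219 and 6725 and Mpo 76710, 84138 and 80905 (here and below, 3 values in a row are sensitive replicate 1, sensitive replicate 2 and resistant). Others of the 10 differed, with Spi1 at 634, 591 and 109, Itgam at 1318, 2389 and 443, Csf3r at 277, 446 and 66.9, Cd34 at 10358, 9186 and 1822 and Csf2rb at 950, 1682 and 8484.

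The resistant cells carried much less transcript of the monocyte receptors Ccr2 and Cx3cr1, of Ccr7 and of the monocyte attractant Ccl2 than their parent. They also carried less of the dimmer receptors Cxcr1 and Cxcr2, and more of the CC ligands Ccl6 and Ccl9 and the receptor Cxcr5. As deposited, 3 of the 50 genes were called higher, where 5.23% of all genes were, and 10 were called lower, where 18.5% of all genes were. After scaling, 3 were called higher and 6 lower, against 9.48% and 8.2% of all genes. The genes called on both scales were 3 that rose and 6 that fell, against 5.15% and 8.11% of all genes. The resistant array read below both sensitive arrays for 33 of the 50 genes, against 68.4% of all genes, and above both for 8, against 20.8%. The counts alone therefore lie near the background of the whole array, and the median difference of -0.30 lay close to the -0.33 of all genes (-0.04 and -0.06 after scaling). Those that fell were 5 receptors and 1 ligand. Much of the family was dim, with 19 genes below 50 units on every array, 9 of them receptors. Such genes had little room to be seen falling.

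**Figure D1:**
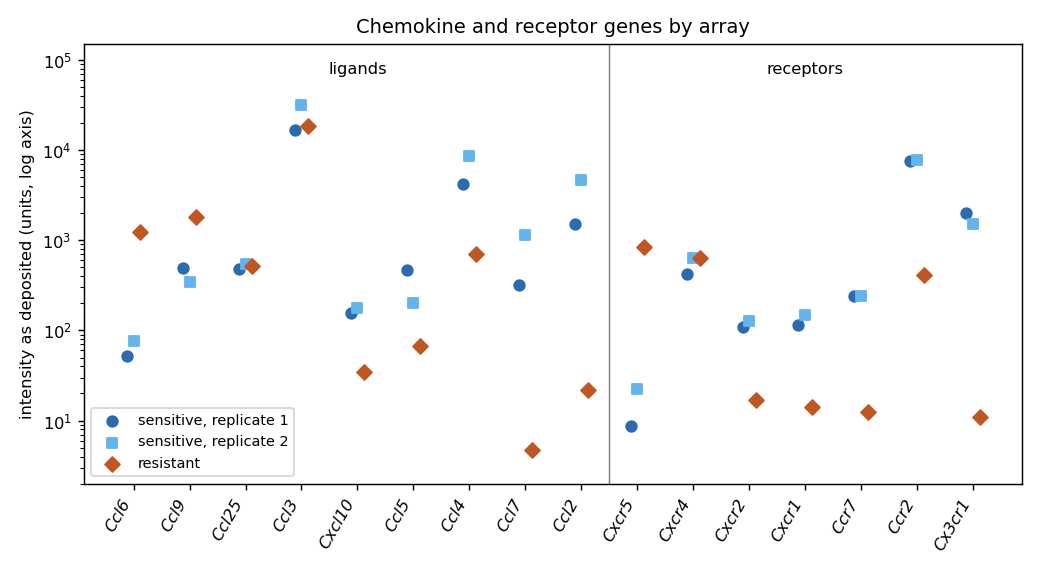
Intensity as deposited (log axis) of the 16 chemokine and receptor genes that were called on either scale or read at least 500 units on an array, with each array as 1 point and genes ordered by difference within ligands and receptors. The resistant array (diamonds) lies above both sensitive arrays for Ccl6, Ccl9 and Cxcr5, and between 10.9 and 415 units for Cx3cr1 and Ccr2, whose sensitive values run from 1521 to 7703.

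Ccr2, the receptor that brings monocytes out of the marrow in response to CCL2 and CCL7, fell sharply. Its probe read 7636 and 7703 units for the parent and 415 for the resistant line. The groups lay far apart, and the sensitive arrays nearly coincided. In limma it fell by 4.05 on the log2 scale (SE 0.20, adjusted p = 3.31e-08), and it stood at -3.36 after scaling (adjusted p = 0.016). A second Ccr2 probe gave the same picture at 4840, 5343 and 252 units.

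Cx3cr1, the fractalkine receptor of monocytes and macrophages, read 2020 and 1521 units for the parent and 10.9 for the resistant line. Its transcript was therefore bright in the parent and close to the floor of the array in the resistant line. The difference was -4.89 (SE 0.26, limma adjusted p = 6.06e-08). With the resistant value so low its size rests on the offset, and it was -6.04 with an offset of 16 and -4.06 with one of 100. Its main ligand, Cx3cl1, a membrane-bound chemokine that is shed by proteases, read 252, 202 and 199, a difference of -0.15 (adjusted p = 0.70).

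Ccr7, which guides cells into lymph nodes and is known from dendritic cells and lymphocytes, fell from 244 and 240 to 12.4 units. The difference of -2.22 (SE 0.29, limma adjusted p = 7.22e-05) was nearly the same against each sensitive array. The neutrophil receptors Cxcr1 and Cxcr2 fell by less on this scale. Cxcr1 read 114 and 148 against 14.0 (-1.49, adjusted p = 9.53e-04), and Cxcr2 read 111 and 128 against 17.1 (-1.33, adjusted p = 0.0017). Neither resistant value overlapped the sensitive arrays, but both genes stood little above 100 units at their highest, and their calls were lost after centring on the array medians (-0.87 and -0.71) and with an offset of 100, and that of Cxcr2 after quantile normalization (-0.90).

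Cxcr5, the receptor that draws B cells into follicles, moved the other way. It went from 8.70 and 22.4 to 845 units, or by 3.78 on the log2 scale (SE 0.30, adjusted p = 1.33e-06 in limma). The sensitive values lay near the floor, where the level of the gene in the parent has no firm value. Its ligand Cxcl13 read between 1.56 and 6.60 units on the 3 arrays. Among 6 measured B-cell markers, Igll1 was higher in the resistant cells (194, 199 and 32384), whereas Cd79a (288, 257 and 94.9), Cd79b (970, 1049 and 21.8) and Vpreb1 (3363, 3646 and 400) were lower and Ms4a1 was at or below 7.78 throughout. The summed B-cell markers were 4852, 5229 and 32930, and their part in the Cxcr5 result was not tested.

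Cxcr4, the receptor for CXCL12 that retains progenitors in the marrow, was not called. It read 427, 633 and 636 units, a difference of 0.27 (SE 0.27, adjusted p = 0.44 in limma). After scaling, it was 0.98 with an adjusted p of 0.085. The resistant value therefore lay at the upper sensitive array as deposited and above both after scaling. Cxcl12 itself read 42.2, 75.2 and 12.4.

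Of the other 12 receptors, none was called. Ccr10, a receptor of skin-homing lymphocytes, read 158, 171 and 123 units, Ccr9, a gut-homing receptor, 89.5, 103 and 56.0, and Ccr1l1 55.9, 48.8 and 80.9. The dimmer probes of Ccr9 and Ccr1l1 did not exceed 3.96 and 9.94 units. The other 9 receptors stayed below 50 units on every array: Ccr1, Ccr3, Ccr4, Ccr6, Ccr8, Cxcr3, Cxcr6, Xcr1 and Cxcr7, now named Ackr3. Their highest readings ran from 3.96 to 18.5 units. Ccr1, a shared receptor for CCL3, CCL6 and CCL9, was among them, at -1.24 to 14.5 units.

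Ccl2, the main attractant of CCR2-bearing monocytes, fell. It read 1501, 4623 and 21.8 units, which gave -5.23 (SE 0.46, adjusted p = 3.00e-06 in limma). With an offset of 16 the difference was -6.13, and with one of 100 it was -4.50. The sensitive arrays differed from each other by 1.59, with replicate 2 higher, but the resistant value lay far below both. After scaling, the difference was -4.95 (limma adjusted p = 0.037), and with a robust trend the limma adjusted p as deposited was 0.047. The call was lost after quantile normalization (-4.67, adjusted p = 0.062).

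Ccl7, which shares the receptor CCR2 with CCL2, and Ccl4, an inflammatory CC ligand of macrophages, were called lower as deposited only. Ccl7 read 321 and 1155 against 4.67, a difference of -3.61 (SE 0.51, limma adjusted p = 1.22e-04), on a probe so near 0 on the resistant array that a failed spot cannot be told apart from a low level. Ccl4 read 4184 and 8534 against 705, a difference of -3.00 (SE 0.32, limma adjusted p = 1.60e-05). Both genes kept much of this once the arrays were scaled, and still lay at least 1 log2 unit below each sensitive array, at -3.53 and -2.28, but with adjusted p of 0.066 and 0.057. The scaled fit had a prior of 2.07 degrees of freedom against 10.98 as deposited, and when the resistant array alone was scaled, an alternative chosen after the data were seen, the prior was 10.5 and both genes were called.

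Ccl5, made by T cells and activated macrophages, and the interferon-induced ligand Cxcl10 were also called lower as deposited only. Ccl5 read 473 and 203 against 66.9, a difference of -1.64 (limma adjusted p = 0.0045) that became -1.16 after scaling, where it stood at -0.60 against sensitive replicate 2. Cxcl10 read 158 and 178 against 34.2 (-1.37, limma adjusted p = 0.0022), and after scaling it was -1.01, just under 1 from sensitive replicate 1. The related CXCR3 ligand Cxcl9 read 87.0, 123 and 66.9, while its other probe did not exceed 13.2 units. Cxcl11 did not exceed 7.78 units.

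Ccl3, a ligand of CCR1, was bright in both lines. It read 16806, 31886 and 18430 units, so the resistant value lay between the sensitive arrays. In limma it differed by -0.33 (SE 0.31, adjusted p = 0.40), and by 0.43 after scaling (adjusted p = 0.49). Its neighbour Ccl4, often induced together with it, thus had a called difference as deposited where Ccl3 had none; the difference between the genes was not tested.

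Ccl6 and Ccl9, CC ligands of rodents that act through CCR1 and are known from myeloid cells, rose. Ccl6 read 52.2, 76.5 and 1246 units, a difference of 3.51 (SE 0.30, limma adjusted p = 2.17e-06). Ccl9 was already measurable in the parent at 492 and 340 and reached 1812, a difference of 2.02 (SE 0.26, limma adjusted p = 5.93e-05). Both rises were larger after scaling, at 4.25 and 2.76. No other ligand was called higher on either scale.

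In the RefSeq annotation of GRCm38.p6, Ccl9 and Ccl6 lie side by side on chromosome 11, with no measured protein-coding gene between them. They are followed by Ccl3 and Ccl4, and Ccl5 precedes them. Along this stretch the order of differences was therefore -1.64 for Ccl5, 2.02 for Ccl9, 3.51 for Ccl6, -0.33 for Ccl3 and -3.00 for Ccl4, so that the genes that rose sat between genes with no call or a lower call. A second group on the same chromosome begins with Ccl2 and Ccl7 and continues with Ccl11 (46.0, 87.1 and 59.1) and Ccl1 (22.4, 26.4 and 17.1), which were not called. The annotation served here only for names, order and promoter sequence, since the sources used here name no build for the array.

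**Figure D2:**
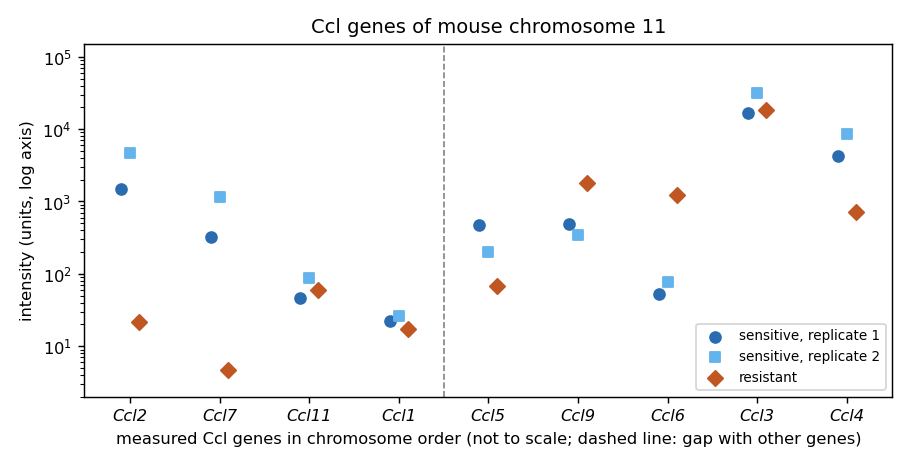
Intensity as deposited (log axis) of the 9 measured Ccl genes in these groups of chromosome 11, in chromosome order and not to scale, with each array as 1 point. The resistant array (diamonds) lies below both sensitive arrays for Ccl2, Ccl7, Ccl1, Ccl5 and Ccl4 and above both for Ccl9 and Ccl6.

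The promoters of the neighbours Ccl9 and Ccl6, which rose, and Ccl3, which was not called, are shown for comparison, together with those of the receptors Ccr2 and Cx3cr1, which fell. Each is the 250 bases before the annotated start (RefSeq, GRCm38.p6), 5′ to 3′ on the gene's strand. A promoter entry was at hand for 36 of the 50 genes. The 14 without one included Ccl2, Ccl4, Ccl7 and Cxcr5. Capitals mark the longest run shared by the Ccl9 and Ccl6 windows, 13 bases long, which lies 14 to 2 bases before the start of Ccl9 and 55 to 43 bases before that of Ccl6. Ccl9 is at chr11:83578637-83578886 on the minus strand, Ccl6 at chr11:83593088-83593337 (minus), Ccl3 at chr11:83649379-83649628 (minus), Ccr2 at chr9:124101933-124102182 (plus) and Cx3cr1 at chr9:120068297-120068546 (minus).
Ccl9: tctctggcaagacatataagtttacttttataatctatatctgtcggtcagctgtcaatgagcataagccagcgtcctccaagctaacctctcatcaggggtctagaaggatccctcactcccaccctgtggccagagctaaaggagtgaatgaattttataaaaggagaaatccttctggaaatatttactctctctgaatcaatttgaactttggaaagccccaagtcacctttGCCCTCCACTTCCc
Ccl6: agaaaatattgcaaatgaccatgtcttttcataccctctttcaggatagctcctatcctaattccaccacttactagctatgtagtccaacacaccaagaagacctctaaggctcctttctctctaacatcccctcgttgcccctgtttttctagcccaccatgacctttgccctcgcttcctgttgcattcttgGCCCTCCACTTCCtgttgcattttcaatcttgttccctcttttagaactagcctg
Ccl3: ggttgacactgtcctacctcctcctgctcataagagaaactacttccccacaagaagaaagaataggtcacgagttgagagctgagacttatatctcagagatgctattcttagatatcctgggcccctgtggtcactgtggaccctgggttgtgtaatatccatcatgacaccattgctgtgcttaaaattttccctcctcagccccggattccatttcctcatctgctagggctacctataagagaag
Ccr2: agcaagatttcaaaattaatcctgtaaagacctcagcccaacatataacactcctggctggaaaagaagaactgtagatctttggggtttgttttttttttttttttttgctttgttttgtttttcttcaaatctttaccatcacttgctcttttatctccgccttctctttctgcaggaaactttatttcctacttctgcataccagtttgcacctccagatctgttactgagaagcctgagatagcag
Cx3cr1: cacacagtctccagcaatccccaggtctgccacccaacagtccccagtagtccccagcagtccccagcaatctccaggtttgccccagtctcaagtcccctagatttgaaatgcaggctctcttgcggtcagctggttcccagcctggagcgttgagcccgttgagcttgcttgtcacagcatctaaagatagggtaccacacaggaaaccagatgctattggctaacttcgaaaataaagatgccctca
The other 9 pairs of these 5 windows shared runs of at most 10 bases. The NF-kB consensus of 10 letters, searched on both strands, was found in the Ccl9 window as ggaaagcccc, 35 to 26 bases before the start, and in none of the other 4. It was present for 10 of the 36 genes with an entry, Ccl1, Ccl9, Ccl20, Ccr1, Ccr3, Ccr6, Cxcl1, Cxcl2, Cxcl3 and Cxcl10, and in 7.25% of all 32851 promoter windows of this length. Of these 10 genes, Ccl9 rose, Cxcl10 was called lower as deposited only, and 8 were not called. All of the 8 but Cxcl2 stayed below 50 units on every array, so a fall could hardly have been seen. The AP-1 motif TGANTCA occurred in the Ccl9 window (53 to 47 bases before the start) and in 6.75% of all windows, and the PU.1 motif GAGGAA in the Ccl3 window (33 to 28 bases, minus strand) and in 23.3% of all windows. A match is a description of the letters and not a bound site.

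The remaining ligands showed little. Ccl25, the ligand of CCR9, read 476, 545 and 518, a difference of 0.02 (SE 0.24, limma adjusted p = 0.95), while its other probe did not exceed 17.4 units. Cxcl16, a transmembrane ligand and scavenger receptor, read 220, 376 and 420. Cxcl14 read 334, 452 and 232, while its other probe read 2.48, 13.2 and 14.0. The ELR-type ligands of CXCR1 and CXCR2 were dim: Cxcl1 and Cxcl3 did not exceed 10.6 units, Cxcl5 read 62.1, 77.8 and 23.3, and Cxcl2 read 18.6, 116 and 106. Across all 34 genes that were neither called nor bright, the differences ran from -0.83 to 0.55 as deposited and from -0.73 to 1.17 after scaling.

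**Figure D3:**
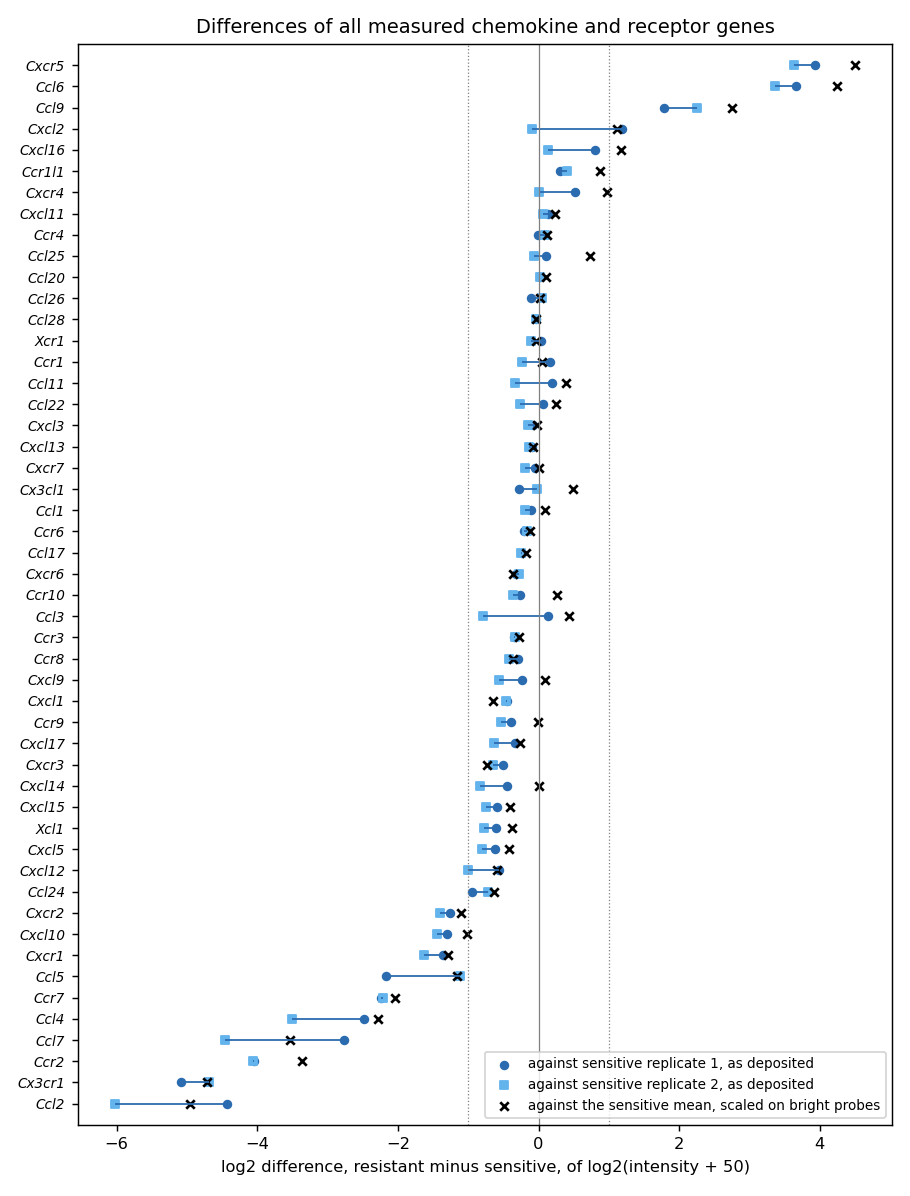
Log2 difference of resistant minus sensitive for all 50 genes, with circles and squares for each sensitive array as deposited, joined by a line, and crosses for the difference from the sensitive mean after scaling on bright probes. Most genes lie between the dotted lines at -1 and 1, and the long lines of Ccl2, Ccl7, Ccl5 and Cxcl2 show how far the sensitive arrays differ from each other.

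The sensitive arrays themselves differed in several inflammatory ligands. A gap of at least 1 log2 unit between them was found for 5 of the 50 genes, against 0.857% of all genes, and all 5 were ligands. Replicate 2 was higher for Ccl7 (1.70), Ccl2 (1.59), Cxcl2 (1.27) and Ccl4 (1.02), and replicate 1 was higher for Ccl5 (1.05). Ccl3 was 0.92 higher in replicate 2. None of the 19 receptors differed by that much, and Ccr2 differed by 0.01 and Ccr7 by -0.02. However, 9 of the receptors stayed below 50 units on every array, where the offset leaves little room for such a gap. The differences of Ccl2, Ccl4, Ccl5 and Ccl7 therefore carry a larger error than those of the receptors. Their standard errors were 0.32 to 0.51, and the highest of a receptor was close to this range, at 0.30 for Cxcr5.

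Set beside each other by known pairs, the values were as follows. For the CCR2 axis, the receptor and the ligand Ccl2 fell, and the ligand Ccl7 was called lower as deposited only. For CX3CR1, the receptor fell and the ligand had no call, and for CXCR5 the receptor rose while the ligand was near 0. The CCR1 ligands Ccl6 and Ccl9 rose and Ccl3 was bright in both lines, while Ccr1 itself read near 0. In the CXCL16 and CXCR6 pair and the XCL1 and XCR1 pair the receptor stayed below 10 units on every array.

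Markers of cell types that carry these receptors also differed between the arrays. Of 6 measured monocyte and macrophage markers, summed at 15370, 18770 and 10410 units, none was at or below 10 units. Csf1r read 2413, 3009 and 28.0, Mpeg1 5370, 3530 and 31.1, Cd68 2593, 3819 and 747 and Adgre1 401, 594 and 159. Cd14 (4556, 7712 and 9072) and Fcgr1 (37.3, 109 and 370) read above both sensitive arrays in the resistant cells. Dendritic cell markers summed to 4950 and 4081 against 311, a list that holds Ccr7 and Xcr1 themselves, with Itgax at 2033, 2387 and 38.9. The 8 neutrophil markers summed to 32590, 34420 and 65550, where Cxcr1 and Cxcr2 fell. Of these markers, Elane (272, 350 and 11153), Lcn2 (11.2, 14.5 and 4695), Ctsg (12900, 12593 and 28196) and S100a8 (17.4, 7.91 and 530) read above both sensitive arrays in resistant cells. Prtn3 (19231, 21137 and 20817) and Camp (19.9, 36.9 and 35.8) lay between the sensitive arrays, and Ltf (134, 270 and 124) and S100a9 (0, 9.23 and -4.67) lay below both. T and NK cell, erythroid, megakaryocyte and fibroblast lists summed to at most 1456 units on any array, the T and NK sum being mostly Nkg7 (1064, 1061 and 154). Cd3e (272, 223 and 90.2) and Cd2 (69.6, 84.4 and 26.4) also lay below both sensitive arrays. Cd3g, Cd4 and Cd8a did not exceed 29.0 units, Cd3d 5.28 and Ncr1 1.32. Endothelial markers summed to 252, 311 and 1173, of which Kdr read 171, 200 and 1165. Cdh5 (62.1, 85.7 and 9.33) and Tek (17.4, 14.5 and -3.11) lay below both sensitive arrays, and Emcn did not exceed 10.6. The part of these markers in the chemokine results was not tested, and in bulk RNA fewer cells of a type and less RNA per cell cannot be told apart.

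Other genes of the pathway were taken from lists of ligands, receptors, signalling genes and chemokine-cutting proteases outside the name rule. Of 75 measured, 6 were called higher and 22 lower as deposited, against 5.23% and 18.5% of all genes. After scaling, 9 were called higher and 16 lower, against 9.48% and 8.2%. The genes called on both scales were 6 that rose and 16 that fell, against 5.15% and 8.11%. The list median was -0.55 as deposited and -0.01 after scaling. The listed genes were brighter than most, with medians of 947, 1171 and 412 units against 99.4, 120 and 57.6 for all genes. Dim genes can hardly be called, so the shares of all genes are no like background for these lists. Of the 6093 genes reading at least 500 units on an array, here termed bright genes, 631 were called higher and 2162 lower as deposited. After scaling these counts were 1112 and 858, and on both scales 619 and 858.

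Among 21 genes of receptor-proximal signalling, 6 fell and none rose, against 8.11% and 5.15% of all genes. Of the 6093 bright genes, 858 fell and 619 rose. Pik3r5, the adaptor of the G protein-activated PI3 kinase, read 1081 and 1504 against 9.33 (-4.48, limma adjusted p = 1.77e-07), a probe near 0 on the resistant array. The receptor kinase gene Grk3 read 1603 and 1492 against 88.7 (-3.53), and the G protein gamma subunit gene Gng2 read 1162 and 1331 against 93.3 (-3.17). Pik3cd (-2.30), Grk2 (-2.21) and the arrestin gene Arrb2 (-2.18) also fell. The catalytic subunit gene Pik3cg (1792, 1553 and 1521) and Gnai2 (947, 1186 and 744), the main inhibitory G protein of leukocytes, were not called. Gnai3 (731, 723 and 1325) was called higher after scaling only, with a difference of 0.82 as deposited and 1.56 after scaling.

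Regulators of G protein signalling end the receptor signal. Of 9 such genes, 2 fell, against 8.11% of all genes and 858 of the 6093 bright genes. Rgs10 read 5296 and 4795 against 308 (-3.83), and Rgs1, a brake on chemokine responses in lymphocytes, read 375 and 681 against 21.8 (-2.96). Of 14 genes of the Rac and migration machinery, 4 fell and none rose, against 8.11% and 5.15% of all genes. None of the 14 was below 100 units on all arrays, and 858 of the 6093 bright genes fell and 619 rose. Elmo1, which joins Dock2 in activating Rac, read 2502 and 1783 against 42.0 (-4.56, limma adjusted p = 9.29e-08), and the mean of its probes gave -2.74. Dock2 (-2.01, and -1.31 after scaling), Coro1a (-2.14 and -1.39) and Rap1b (-2.01 and -1.29) also fell, and Rac2 (5709, 6020 and 3551) and Rac1 (2897, 3362 and 3469) were not called.

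Among 16 proteases, sheddases and proteoglycans that cut or hold chemokines, 5 rose and 3 fell, against 5.15% and 8.11% of all genes. Of the 6093 bright genes, 619 rose and 858 fell. Adam10 (1610, 1426 and 3576) and Adam17 (1278, 1630 and 3537), the sheddases of CX3CL1 and CXCL16, rose by 1.21 and 1.26 (1.96 and 2.01 after scaling). Elane rose by 4.96 and Srgn, the granule proteoglycan serglycin, by 1.71, as did Ctsg, a granule protease gene, by 1.14 (1.90 after scaling). Cd44 (-2.99), the syndecan gene Sdc4 (-2.88) and the collagenase gene Mmp8 (-2.56) fell. Of the 7 other ligand-like genes, Cmtm6 rose (1433, 1381 and 4394; 1.61) and Cmtm3 fell (829, 1004 and 227; -1.80, and -1.15 after scaling), while the platelet chemokine genes Pf4 and Ppbp did not exceed 24.8 units. Of 8 atypical and related receptors, none was called as deposited, and Ccrl2 (215, 311 and 596) was called higher after scaling only, with a difference of 1.06 as deposited and 1.77 after scaling.

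**Figure D4:**
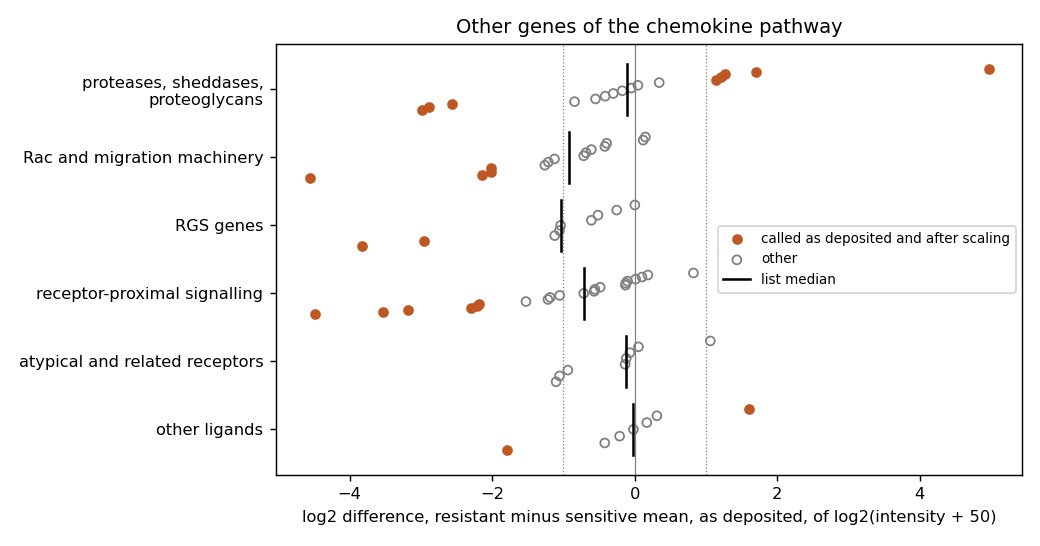
Log2 difference of resistant minus sensitive mean, as deposited, for 75 pathway genes outside the name rule, with 1 row per list, filled points for genes called as deposited and after scaling, open points for the others and a bar at each list's median. Filled points lie only on the lower side for receptor-proximal signalling, RGS genes and the Rac machinery, and on both sides for the proteases and proteoglycans.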

How the data were processed

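Per the labels' protocols, total RNA was amplified with an amino-allyl kit, coupled to a Cy5 dye and read on arrays of 1 colour. The authors deposited 1 table of linear intensity per probe and array, background-subtracted since values fall below 0. Scanner, software and scaling: not given in the sources used here. A platform table gave symbols for the 26423 probes: 20377 had 1 symbol, 0 several and 6046 none, and 18213 symbols matched a current mouse gene, 2126 an older name and 38 none. The probe with the highest mean stood for each gene. The log2(intensity + 50) values of all genes were fitted in limma 3.58.1 under R 4.3.3 (lmFit, eBayes with a variance trend), which left 1 residual degree of freedom. This step was tested on simulated arrays. Tables and plots used Python 3.11.15 with pandas 2.3.3 and matplotlib 3.10.9. Genes with values per array were those called on either scale or reading at least 500 units on any array; up to 5 other genes were to be named for their ligand or receptor, and more were named after their values were seen. From the pathway lists, at most 5 called genes a list were to be named, with up to 2 not called, and Arrb2, Gnai3, Adam10, Adam17, Ctsg, Ccrl2, Pf4 and Ppbp were added after their values were seen. The members, lists and settings were chosen with earlier results of these data known. Alternatives were scaling on bright probes, quantile normalization, centring, other offsets, a floor, the mean of probes, a filter on dim genes, other eBayes settings, other thresholds and leaving out each sensitive array.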

Additional observations from a re-analysis of the deposited data

How the results depend on the processing

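No paired analysis was possible because the resistant group holds 1 array with no replicate number. No named gene with a call changed direction under any setting, and without either sensitive array (size only, no test) the members called ranged from 3 to 4 higher and from 10 to 11 lower. The count of 3 higher became 0 when a floor of 50 replaced the offset; it was 2 to 3 under every other setting with both arrays. The count of 10 lower became 6 after scaling on bright probes, 4 after quantile normalization, 6 after centring on array medians, 6 with an offset of 100, 1 with the floor of 50, 6 at a log2 difference of at least 2 and 19 on the adjusted p alone. The prior degrees of freedom fell to 2.07, 1.74 and 0.74 with the scaling, quantile normalization and the floor. Of the 4 lower calls lost on scaling, 2 still had the size asked. The members' median of -0.30 became -0.035 after scaling on bright probes, -0.037 with the resistant array alone scaled, -0.024 after quantile normalization, 0.32 after centring, -0.49 with an offset of 16, -0.17 with an offset of 100, 0 with the floor, -0.24 with the mean of probes and -0.48 without dim genes (18 of 50 genes left). For the pathway genes, 6 called higher became 0 with the floor and 1 at a difference of at least 2, and 22 called lower became 12 after quantile normalization, 0 with the floor, 12 at a difference of at least 2 and 35 on the adjusted p alone. The call of Ccl7 was also lost with a robust trend (adjusted p = 0.095). Signal over background limits the 19 genes below 50 units on every array.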
